A study of Drosophila melanogaster with 2 samples.

Results

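Polycomb repressive complex 1 (PRC1) genes and the genes Tlk and asf1, which encode a kinase and the histone chaperone it phosphorylates, were examined for binding of a p53-eGFP fusion in Drosophila melanogaster embryos, in peak lists made by ChIP-seq (sequencing of the DNA that an antibody pulls down with chromatin). The 8 genes were ph-p, ph-d, Pc, Psc, Su(z)2, Sce, Tlk and asf1, out of 13945 protein-coding genes on the 6 main chromosome arms. They were chosen by symbol with the peak values of these data already known, since Tlk and ph-p hold peaks among the 25 strongest. Their peak strengths are therefore given as a description and with no test. A peak was counted for a gene when its summit lay in the gene body or within 2 kb of it. The final list of the authors, called the IDR list after the irreproducible discovery rate, which weighs how far peaks rank alike in replicates, held 2290 peaks, and 18 of them lay in the windows of these genes.

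The embryos were whole animals of mixed sex, 0 to 24 h old, from the strain p53-MiMIC-GFP, in which an eGFP exon inside an intron of p53 turns the gene product into a p53-GFP fusion. All samples carried that insertion, from 1 donor line, and none came from embryos without it. There was 1 group of 2 biological replicates, numbered 2 and 3, and no second condition such as irradiation. Chromatin was sonicated to 200 to 800 bp and precipitated with an anti-GFP antibody by the sample description, whereas the antibody field of the labels names p53. Whole embryos mix every cell type of the animal, so a strong peak in few cells and a weak one in many cannot be told apart, and peak lists hold no expression of marker genes by which the tissue could be checked.

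PRC1 keeps developmental genes such as the Hox genes silent. Its core in flies joins a Polycomb protein (Pc), which reads trimethylated lysine 27 of histone H3, a Polyhomeotic protein (ph-p or ph-d), which can form chains through its SAM domain, a Psc or Su(z)2 protein, which compacts chromatin, and Sce, the RING protein that ubiquitinates histone H2A. Tlk encodes Tousled-like kinase, which phosphorylates the chaperone Asf1, and Asf1 hands histones H3 and H4 to the factors that assemble nucleosomes. p53 is the transcription factor of the DNA damage response, and binds pairs of a short palindromic word called a half-site, of which a full site holds 20 positions.

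The sequences of 3 summits carry the comparisons that follow. They are given on the plus strand of the dm6 (Release 6) genome, as the 201 bases centred on the summit. At ph-p the strongest summit, X:2137239-2137439, is an intronic stretch of the longest ph-p transcript. Capitals mark bases with no aligned base at the paralogue ph-d.

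ph-p strongest summit: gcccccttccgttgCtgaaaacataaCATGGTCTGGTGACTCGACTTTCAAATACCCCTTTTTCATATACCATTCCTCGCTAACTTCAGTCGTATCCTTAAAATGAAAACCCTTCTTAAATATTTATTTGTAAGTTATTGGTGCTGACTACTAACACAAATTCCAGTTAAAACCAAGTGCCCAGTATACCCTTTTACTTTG

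At ph-d the summit, X:2123463-2123663, lies just upstream of the gene. Capitals mark bases identical to the aligned base at ph-p.

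ph-d summit: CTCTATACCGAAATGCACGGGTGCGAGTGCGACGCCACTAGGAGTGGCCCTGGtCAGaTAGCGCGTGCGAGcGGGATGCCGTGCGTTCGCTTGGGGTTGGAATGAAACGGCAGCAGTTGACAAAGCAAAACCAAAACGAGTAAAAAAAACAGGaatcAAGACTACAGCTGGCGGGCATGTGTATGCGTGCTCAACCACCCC

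At Tlk the second strongest summit, X:3742134-3742334, lies in an intron. Capitals mark the full p53 site with the fewest mismatches.

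Tlk second summit: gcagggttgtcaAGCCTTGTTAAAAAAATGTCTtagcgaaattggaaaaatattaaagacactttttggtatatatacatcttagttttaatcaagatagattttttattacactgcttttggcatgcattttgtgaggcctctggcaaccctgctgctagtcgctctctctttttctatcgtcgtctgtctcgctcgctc

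The ph-p window is nearly all capitals past its first bases, and the ph-d window is nearly all capitals throughout: the strongest ph-p summit is sequence that ph-d lacks, whereas the ph-d summit is sequence that both genes hold. The full p53 sites at these genes, each with 3 mismatches in 20 positions, were read in the same way. In these 4 sequences capitals mark the bases that match the site.

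ph-d, X:2123635-2123654: GGGCATGTgTAtGCgTGCTC

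ph-p copy of the ph-d site, X:2137202-2137221: GGGCATGTgTAtGCgTGCTC

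Tlk strongest summit, X:3776583-3776602: GAGCgAGaTaGAGCTAGTTT

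Tlk second summit, X:3742146-3742166, with a spacer of 1 bp: AGcCTTGTTaaAAAaATGTCT

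Of the 8 genes, 6 had an IDR summit in the gene body plus 2 kb. The other 2, Sce and asf1, had none. Over all protein-coding genes the share was 23.9% (3329 of 13945), but the share grew with the length of the window. It was 19.9% for windows under 10 kb, 35.3% for windows of 10 to 20 kb and 42.7% for windows over 20 kb. Sce and asf1 had the shortest windows among the 8, 5.60 and 5.50 kb, and the 6 genes with a summit had windows of 11.6 to 73.8 kb. At a deposited q of 0.01 or less, 5 of the 8 genes held a region of replicate 2, beside 19.6% of all genes. In replicate 3 it was 6 of the 8, beside 36.7% of all genes. The gene with a region in replicate 3 alone was Su(z)2.

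Signal values are the authors' peak strength for each region, on a scale not given in the sources used here, and they are compared only within a list. In the IDR list they ran from 75.8 to 1969.7, with a median of 109. The strongest peak of a gene had a median signal value of 116 over the 3329 genes with a summit. Ordered by their strongest peak, the genes were Tlk at 989, ph-p at 659, Pc at 302, Psc at 122, ph-d at 117 and Su(z)2 at 84.5. Tlk ranked 5 and ph-p ranked 23 among the 3329 genes, whereas Psc at 1481 and ph-d at 1624 lay close to the middle and Su(z)2 at 2815 lay low. Psc and ph-d exchanged no place between the replicates, at 57.0 and 46.2 in replicate 2 and 69.2 and 68.3 in replicate 3, but in replicate 3 they were nearly equal. Su(z)2 ranked above both in replicate 3, at 77.2, and far below them in replicate 2, at 17.3.

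ph-p, on the minus strand at X:2126210-2138371, held 4 IDR summits, all in its own body. Only 43 protein-coding genes, 0.308%, held 4 or more. The strongest peak, X:2137201-2137519, ranked 18 in the IDR list with a signal value of 659. It had a signal value of 272 in replicate 2 and 396 in replicate 3, and ranked 17 in each. Both replicates thus placed it at the same rank, and their summits were 14 bp apart. The summit lay 484 bp upstream of an internal start site of ph-p, inside the intron of the longest transcript, which starts farther upstream.

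The other 3 ph-p summits surrounded the strongest one within 2 kb. The peak X:2137757-2138152, 416 bp downstream of the outermost start site, had a signal value of 145 in the IDR list. It had 42.5 in replicate 2, at rank 1260, and 110.3 in replicate 3, at rank 370. This peak ranked higher in replicate 3, and the next 2 ranked higher in replicate 2. The intronic peak X:2135202-2135597 had an IDR signal value of 111, with 53.5 at rank 776 in replicate 2 and 64.8 at rank 1219 in replicate 3. Replicate 3 held a further region overlapping this peak, with a signal value of 36.8. The peak X:2136282-2136677, 142 bp downstream of an internal start site, had an IDR signal value of 98.0, with 48.3 at rank 958 in replicate 2 and 49.9 at rank 2115 in replicate 3. All 4 ph-p peaks reached a q of 0.01 or less in both replicates.

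ph-d, on the minus strand at X:2115727-2123286, is the paralogue and next neighbour of ph-p, and held 1 IDR summit. It lay 277 bp upstream of its start site, in the peak X:2123365-2123760, at rank 994 with a signal value of 117. In replicate 2 that peak had a signal value of 46.2 at rank 1062, and in replicate 3 a signal value of 68.3 at rank 1077. The ranks in the replicates were thus close, as at the strongest ph-p peak. No other region in the ph-d window had a q of 0.01 or less in either replicate. The next strongest, at 27.0 in replicate 2 with a q of 0.0909, lies between the genes and within 2 kb of both.

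The strongest ph-p peak exceeded the ph-d peak in every list. The ratio of the signal values was 5.65 in the IDR list and in the pooled list, 5.90 in replicate 2 and 5.79 in replicate 3. The ratios of the replicates differed little from each other. They describe a gene that was chosen for its strong peak. Under the limit of 2 kb, the ph-d peak counted for ph-d alone, since it lay 2647 bp from the ph-p body.

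Aligned with each other by BLASTN, ph-p and ph-d shared 5 blocks. The longest covered 4404 bases of ph-p in the transcribed region, at 92.0% identity, and held no IDR summit at either gene. Around the 5′ ends, blocks of 518, 383 and 346 bases of ph-p aligned to ph-d at 90.7%, 70.5% and 81.0% identity. The strongest ph-p summit fell between the first and the second of these, in a stretch of 208 bases, X:2137265-2137472, with no aligned base at ph-d. In the place of those 208 bases ph-d has 15. The summit lay 74 bp from the start of the stretch and 133 bp from its end.

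The ph-d summit lay, in contrast, in shared sequence: of the 201 bases around it, 197 (98.0%) aligned to ph-p, and 98.5% of those were identical. Its copy at ph-p is at X:2137129, which is 210 bp from the strongest ph-p summit and 72 bp outside that peak. The copy of the full p53 site, in contrast, lies inside the ph-p peak, 127 bp from the ph-p summit, while the site at ph-d lies 82 bp from the ph-d summit. The identical 20 bases thus lie under the weaker peak and at the edge of the stronger one. Among the other ph-p summits, the one at rank 597 had an aligned base at ph-d, X:2124263, where the pooled list held no region. The remaining ph-p summits, at ranks 1114 and 1403, had no aligned base within 100 bp.

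Shared sequence bears on how reads can be placed. Of the 31-base words of the gene bodies, 66.9% in ph-p and 66.5% in ph-d occurred once in the 6 arms. Within 100 bp of the strongest ph-p summit every such word occurred once. At the ph-d summit 63.7% did, the lowest share of the 18 peaks. The handling of reads that fit several places was not stated in the labels or file headers, and the part of this in the ph-d signal was not tested.

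**Figure D1:**
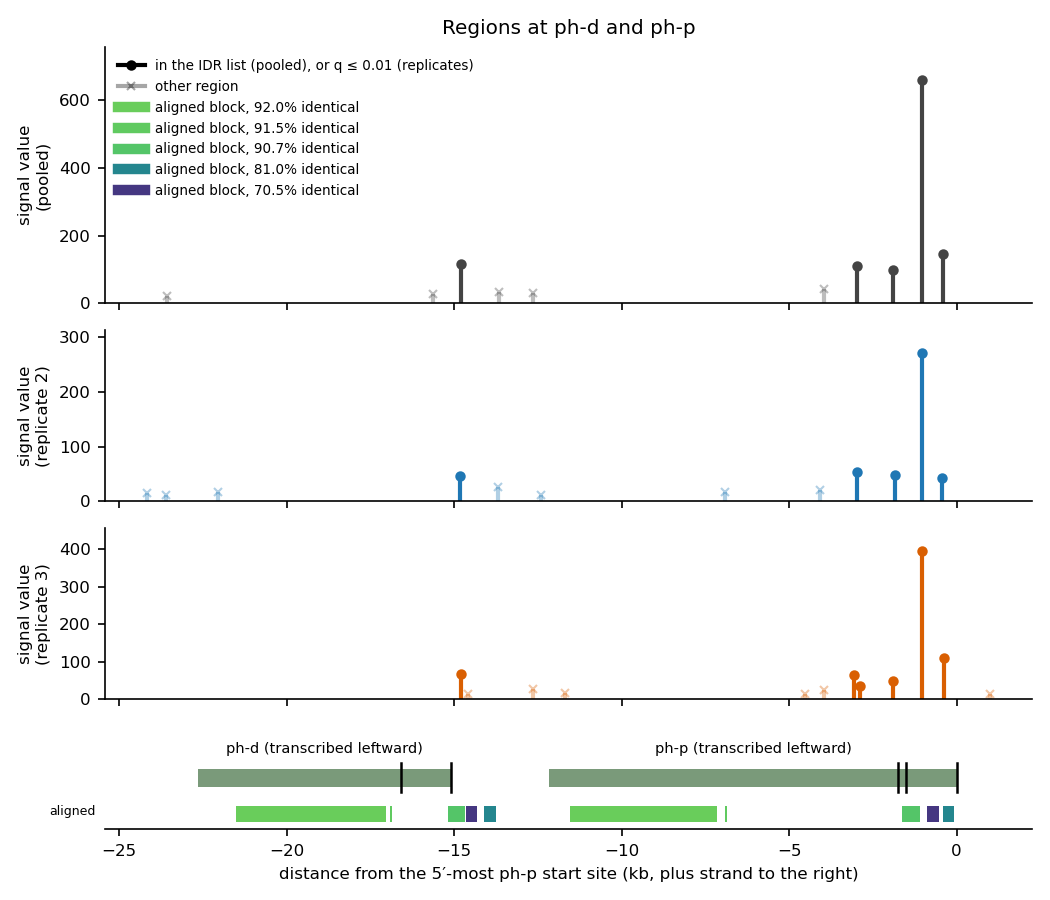
Signal values (vertical axes, the authors' units, linear) of the regions at ph-d and ph-p in the pooled list and in each replicate, by distance from the outermost ph-p start site in kb (horizontal axis). Each stem is a region at its summit, bars below show the gene bodies with start sites as black ticks, and coloured bars show the aligned blocks; the tallest stem in each panel, 659, 272 and 396, stands in the gap between aligned blocks at ph-p.

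Pc, at 3L:21306138-21318020 on the minus strand, held 2 IDR summits, neither inside its body. The stronger, in the peak 3L:21304474-21304664 at rank 118, had an IDR signal value of 302. It had 131 in replicate 2, at rank 112, and 171 in replicate 3, at rank 130. It counted for Pc only through the 2 kb added to the body. It lay 1568 bp past the 3′ end of Pc and 88 bp from a start site of CG11309, the nearest to it. The peak at the Pc start site itself, 3L:21317853-21318248, lay 31 bp upstream and was weaker, at 120.3 and rank 924. That promoter peak had a signal value of 36.3 at rank 1710 in replicate 2 and 80.2 at rank 741 in replicate 3, and a q of 0.01 or less in both.

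Psc and Su(z)2 are neighbouring genes on 2R that encode related proteins. The strongest Psc peak lay close to the median of 116 over genes with a summit, and the Su(z)2 peak lay below it. The Psc body, 2R:12965997-12980994 on the minus strand, held 2 IDR summits. The intronic one, in the peak 2R:12975388-12975783, lay 5072 bp downstream of the nearest start site. Its signal value was 122 in the IDR list, 57.0 in replicate 2 and 69.2 in replicate 3. Its ranks in the replicates, 679 and 1047, were of a similar order. The one at the start site, in the peak 2R:12980550-12980945, was close to the bottom of the IDR list, at 76.2 and rank 2265. Its q was 0.000636 in replicate 3 and 0.423 in replicate 2. Between the genes, 4144 bp from the Psc body and so outside the window, a further IDR summit had a signal value of 112.

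Su(z)2, at 2R:12996501-13007911 on the plus strand, held 1 IDR summit, 157 bp upstream of its start site in the peak 2R:12996146-12996541. Its signal value of 84.5 put it at rank 1869. Replicate 3 had it at 77.2, rank 810 and a q of 0.000213. The region of replicate 2 there had a signal value of 17.3, rank 11395 and a q of 0.585, with a summit 226 bp away. Of the 6 genes with an IDR summit, Su(z)2 was the one with no region at a q of 0.01 or less in replicate 2.

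Sce, at 3R:27680431-27682029, is the catalytic subunit gene and the PRC1 gene without an IDR summit. Its pooled region ranked 22874 of 26752 and had a q of 0.899. The regions in its window had a signal value of 15.7 in replicate 2, and 16.1 and 13.2 in replicate 3. The region of replicate 2 stood at the median of its list, 15.7, and both regions of replicate 3 stood below theirs, 18.7. None had a q of 0.01 or less. Together, 5 of the 6 PRC1 genes had an IDR summit.

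Tlk, at X:3720007-3789770 on the plus strand, held 8 IDR summits, all in its own body. Only 4 protein-coding genes, 0.0287%, held 8 or more: CG1677 with 11, Raf with 9, and Hr4 and Tlk with 8 each. These were long windows, of 52.4 to 129 kb. Per 10 kb of window, Tlk held 1.08 summits, fewer than ph-p at 2.47 and Pc at 1.26 and close to Psc at 1.05. Over the 6 arms there were 0.171 per 10 kb. That value includes stretches without a summit, whereas each of these windows holds at least 1, so it is no background for them. The density over all genes with a summit is not given.

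The strongest Tlk peak, X:3776420-3776805, ranked 4 in the IDR list with a signal value of 989. It had 380.2 in replicate 2, at rank 6, and 615 in replicate 3, at rank 3. Its summit lay in a 5′ UTR, 559 bp downstream of an internal start site. The second, X:3742090-3742360, ranked 60 with a signal value of 424. It had 182 in replicate 2, at rank 54, and 238 in replicate 3, at rank 63. This second summit lay in an intron, 2337 bp from the nearest start site. The replicates thus placed both of these peaks at similar ranks.

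The 8 summits fell into 2 clusters in the 69764 bp of the gene. The first held 3 summits over 8501 bp, beginning 22227 bp from the start of the gene, with signal values from 85.0 to 424. The other held 5 summits over 6560 bp, beginning 54450 bp from the start, with signal values from 78.2 to 989. Each cluster thus held 1 strong peak and weaker ones. In the first, the strong peak came first and both weaker ones lay downstream of it. No IDR summit lay within 1 kb of the outermost start site. The strongest pooled region there, 161 bp away, had a signal value of 56.9 and a q of 0.0228. In replicate 3 the same region had a signal value of 43.5 and a q of 0.00127. In replicate 2 the region overlapping it had 18.2 and a q of 0.522.

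The 6 weaker Tlk peaks ranked from 799 to 2157 in the IDR list. Of these, 4 had a q of 0.01 or less in both replicates. The others did so in replicate 3 alone. They were the peak X:3779721-3780116, 224 bp upstream of the innermost start site, with a q of 0.0817 in replicate 2, and the intronic peak X:3780819-3781214, with 0.455. Another of the 6, X:3743471-3743866, was the one with the widest gap of the other kind, with rank 540 in replicate 2 and 2952 in replicate 3. Replicate 3 split this peak into 2 regions, with signal values of 42.1 and 33.9, and the rank is that of the stronger. The intronic peak X:3774259-3774654, 1602 bp upstream of an internal start site, had a signal value of 59.5 in replicate 2 and 69.1 in replicate 3. The peak X:3750537-3750932, the last of the first cluster, had 35.8 in replicate 2 and 47.8 in replicate 3. The summit of X:3777275-3777670 lay in the intronic microRNA gene mir-4962, and had a signal value of 56.4 in replicate 2 and 66.0 in replicate 3.

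**Figure D2:**
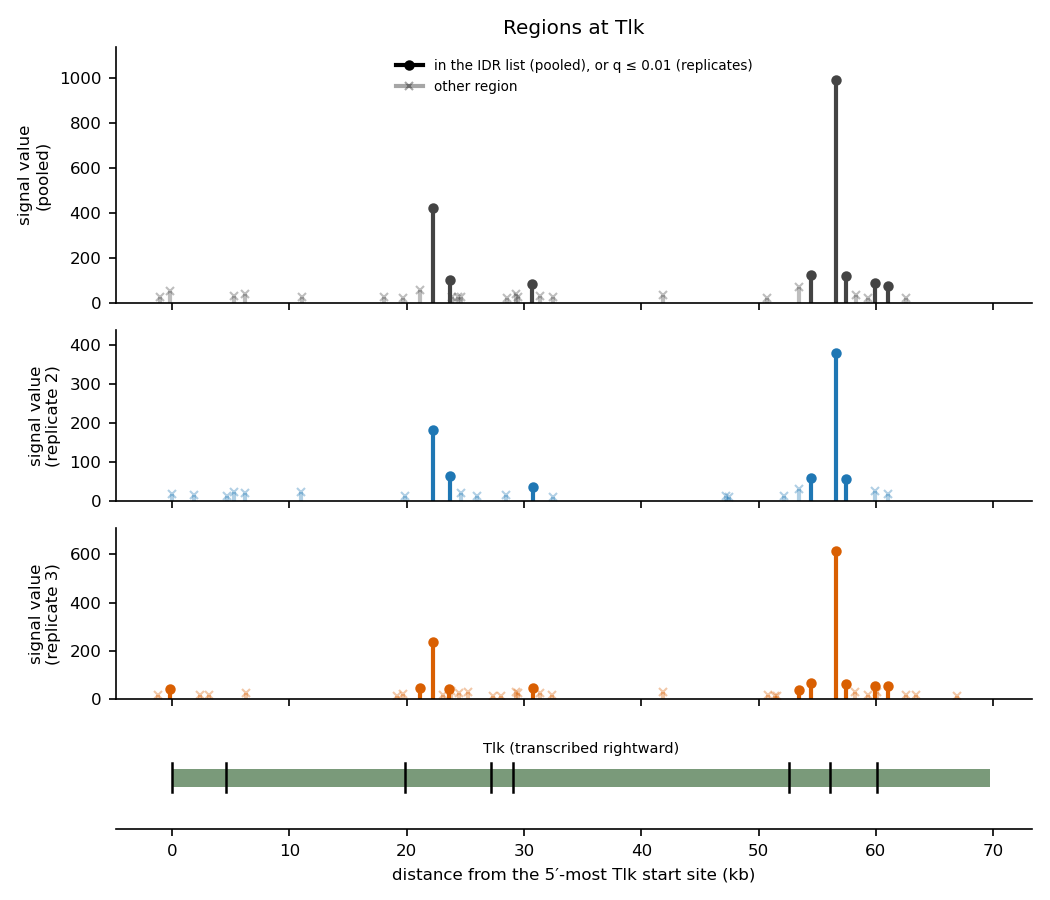
Signal values (vertical axes, the authors' units, linear) of the regions at Tlk in the pooled list and in each replicate, by distance from the outermost start site in kb (horizontal axis). Stems are regions at their summits and black ticks are start sites; the IDR summits sit in 2 clusters, each with 1 tall stem, of 424 and 989 in the pooled list.

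asf1, at 3L:19618894-19620398 on the plus strand, encodes the chaperone that Tlk phosphorylates, and had no IDR summit. Its strongest pooled region, 347 bp from the start site, had a signal value of 37.5, rank 8895 and a q of 0.340. In replicate 2 its only region had a signal value of 14.1 and a q of 0.804. In replicate 3 the strongest had 28.5 and a q of 0.0563. None of these reached the q of 0.01. The nearest IDR summits outside lay 6630 bp from the body, at Lon with a signal value of 259, and 15548 bp away, at wnd with 844. The kinase gene, chosen for its strong peak and with a window of 73.8 kb, had the strongest peak of the 8. The gene of its substrate, with a window of 5.50 kb, had none. Most genes with windows under 10 kb had none either, since 19.9% of them had a summit.

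Among the 18 peaks, 14 had a q of 0.01 or less in both replicates and 4 in replicate 3 alone. The peaks in replicate 3 alone were 1 each at Psc and Su(z)2 and 2 at Tlk. Over the whole IDR list the shares were 71.9% in both (1646 peaks), 27.1% in replicate 3 alone and 1.05% in replicate 2 alone. By rank, 10 of the 18 peaks stood higher in replicate 2, 7 in replicate 3, and 1 at the same rank in both. Where several regions of a replicate overlapped a peak, the one ranked highest was used. This split is not given for the whole IDR list, so it describes the 18 peaks only. The lists differ, with 1847 regions of replicate 2 and 4186 of replicate 3 at a q of 0.01 or less. The 4 strongest peaks, at Tlk, ph-p and Pc, differed little in rank between the replicates.

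**Figure D3:**
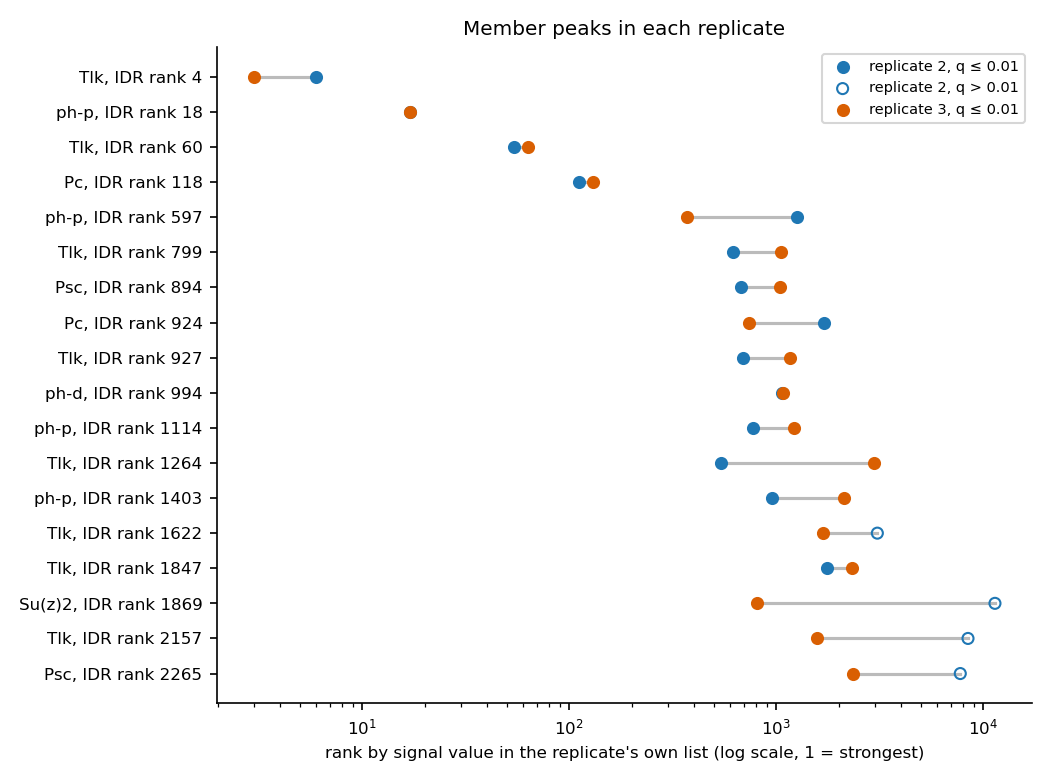
Rank by signal value in each replicate's own list (horizontal axis, log scale, 1 is the strongest) for the 18 IDR peaks of the 6 genes (vertical axis, ordered by rank in the IDR list). Filled points have a q of 0.01 or less and open points a higher one; the 4 open points all belong to replicate 2, and the points of the 4 strongest peaks lie close together.

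Values beside the rank limit show where the genes stood. The Tlk peak at rank 4, with 989, followed peaks nearest to Ugalt at 1072 and Rh5 at 1044, and preceded CG14100 at 981 and cbt at 934. The ph-p peak at rank 18 stood between CG13323 at 668 and Dp1 at 664 above it and hll at 653 and crp at 650.1 below it. Neighbours in this order thus differed by little. At the limit of 25 peaks, those just inside were nearest to p53 at 609.8 and Art3 at 599, and those just outside to PNPase at 596 and Chro at 593.

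By position, 9 of the 18 peaks lay within 500 bp of a start site, 8 lay in introns and 1 in a 5′ UTR. For all but 1 of the 18 the nearest protein-coding start site was that of the gene itself, the exception being the Pc peak at CG11309. On the X chromosome lay 13 of the 18, at ph-p, ph-d and Tlk. Of these, ph-p held 4 and Tlk 8, and both genes were chosen for strong peaks. The same counts over all IDR peaks are not given, so these describe the 18 peaks only. Base composition varied widely among the summits. Within 100 bp the share of G and C ran from 28.4% at the ph-p peak of rank 597 to 55.2% at the ph-d peak and a Tlk peak, beside a median of 39.8% over the IDR list.

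Sequence words were not used to choose the genes. A full p53 site with at most 3 mismatches lay within 100 bp of the summit in 3 of the 18 peaks (16.7%), beside 7.21% of all IDR peaks. These were the ph-d peak and both strong Tlk peaks, whose sites are printed above, 25 and 78 bp from the Tlk summits. The site at the strongest Tlk peak was known from earlier results, and several of the 18 peaks share a gene, so they are not separate trials. At the strongest ph-p summit the best match had 5 mismatches, and that summit held none of the words searched. A single half-site without mismatch occurred in 1 of the 18, the strongest Tlk peak, beside 4.54% of all IDR peaks.

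The other words were those of chromatin factors, read on both strands. GAGAG, the word of GAGA factor, which Trl encodes, occurred in 8 of the 18 (44.4%), beside 25.5% of all IDR peaks. The most lay at the Tlk peaks X:3779721-3780116 with 14 and X:3777275-3777670 with 8, and the promoter peaks of Psc and Su(z)2 held 5 each. Overlapping matches were each counted, so these need not be separate words. None of the ph-p, ph-d and Pc peaks held it. GCCAT, the core word of Pho, occurred in the intronic Psc peak alone, 1 of 18 (5.56%), beside 30.6% of all IDR peaks. TATCGATA, the word of the promoter factor DREF, and GGTCACAC, that of M1BP, occurred in none, beside 6.51% and 4.72%. A match is a description of the letters, and none says only that these letters are not within 100 bp.

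Related chromatin genes were counted in 5 lists of 59 genes, and 34 of these (57.6%) had an IDR summit in the gene body plus 2 kb, beside 23.9% of all protein-coding genes. Their windows were longer, with a median of 9.82 kb against 6.17 kb over all protein-coding genes. By list the median window ran from 8.06 to 13.1 kb, and in the classes that span these lengths the shares over all genes were 19.9% and 35.3%. The strongest peaks of the 34 had a median signal value of 111, beside 116 over all genes with a summit. In 16 of the 34 the strongest summit lay nearest to a start site of another gene. A summit within a window thus need not belong to that gene, and which gene it belongs to was not tested.

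Genes of DNA-binding Polycomb recruiters had an IDR summit in 8 of 9 cases (88.9%), pho being the exception. Trl led with a signal value of 326 in its own intron, followed by phol at 313, Dsp1 at 172 and Sfmbt at 129. The phol and Dsp1 summits lay nearest to CG3552 and CG9921. Of the 8 genes of PRC2, the complex that methylates lysine 27 of histone H3, 5 (62.5%) had one. E(z), the methyltransferase, Su(z)12 and escl had none. Caf1-55 at 599, Pcl at 125 and Jarid2 at 115 had theirs nearest to Art3, pAbp and Uch-L5. The fourth strongest, jing at 82.3, was in its own intron.

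Of the 15 histone chaperones and assembly factors, 5 (33.3%) had a summit. After Caf1-55, which stands in both lists, came Nasp at 172, yem at 126 and dre4 at 94.4. Those of Nasp and yem lay nearest to CG9801 and Ctl2, and that of dre4 at its own start site. Among the 9 other Polycomb group genes, 4 (44.4%) had a summit: caly at 125, nearest to CG42837, and Kdm2 at 97.7, RYBP at 96.4 and l(3)73Ah at 94.6, nearest to their own start sites. Of the 19 trithorax group genes, which keep genes active against Polycomb silencing, 13 (68.4%) had one. The strongest was ash1 at 981, 88 bp from a start site of CG14100, then osa at 402 in its own intron, wds at 189 near egh and fs(1)h at 164 near mys.

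**Figure D4:**
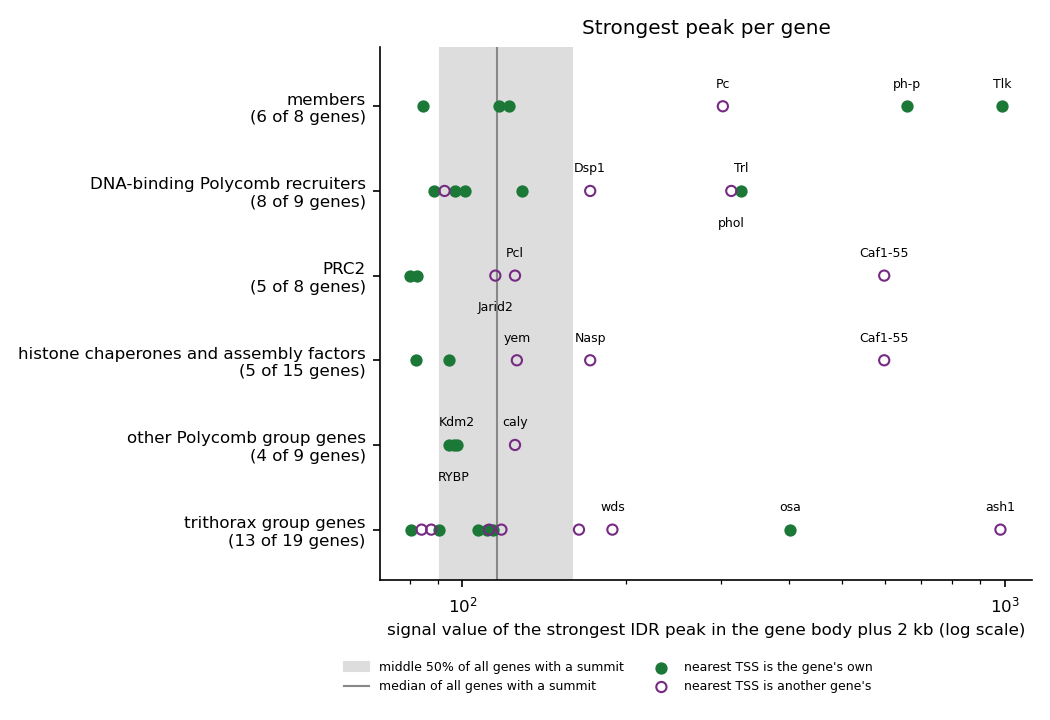
Signal value of the strongest IDR peak in the gene body plus 2 kb (horizontal axis, log scale) for the 8 genes and 5 related lists (vertical axis), with 1 point per gene that has a summit. Filled points have their own start site nearest to the summit, open points that of another gene, the line at 116 is the median of all genes with a summit and the band the middle 50% of them; ph-p and Tlk are filled points at 659 and 989, and the open points at 599 and 981 are Caf1-55 and ash1.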

How the data were processed

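The data were ChIP-seq peak lists from 2 samples, read in the dm6 build. For each region the authors deposited a signal value and a −log10 q-value, which was converted to q here. The authors called regions per replicate (30000 each) and on both replicates pooled (26752). The IDR list holds 2290. Neither labels nor file headers state the signal scaling, the caller, the aligner or the IDR threshold. The read depth behind a region is unknown, so no interval is printed.

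The genes and lists were chosen with earlier results of these data known. Genes came from Ensembl release 115 on the 6 arms. Named besides the 8 genes are up to 4 genes per list with the strongest summit, the genes nearest to a member's peak, and rank neighbours. The list genes without a summit, the other genes with 8 or more summits, and Lon, wnd and mir-4962 were named after their values were seen. For the p53 site, 2 adjoining half-sites or 2 set 1 bp apart were searched, allowing 3 mismatches. The ph genes were aligned by BLAST+ 2.17.0 at an E-value of 1e-5. Scripts ran in Python 3.11.15 and were tested on simulated data. There is 1 group, so no test was made. The alternatives were other windows, lists, and replicates left out, by use of the other replicate's list alone. For counts, that list was cut to its strongest 2290 regions, as many as the IDR list holds. For the ratio of ph-p to ph-d the full list was used. The dm3 lists were not used.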

Additional observations from a re-analysis of the deposited data

How the results depend on the processing

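The number of the 8 genes with a summit, 6, fell to 3 with the gene body alone (ph-p, Psc and Tlk) and ranged from 5 to 6 when a replicate was left out. Su(z)2 was lost without replicate 3. The count of the 59 related genes, 34, ranged from 32 to 36 without a replicate. It rose to 40 with the gene body plus 5 kb and to 39 with pooled regions at a q of 0.01 or less. It fell to 14 with the gene body alone, 21 within 1 kb of a start site and 18 among the stronger peaks of the IDR list alone. Where only summits nearest to the gene's own start site counted, an alternative chosen after seeing the data, it was 20. No share over all protein-coding genes was counted under these alternatives, for the 59 genes or for the 8. The 23.9% of all genes belongs to the gene body plus 2 kb in the IDR list and is no background for them. The ratio of ph-p to ph-d was 5.65 in the IDR list. With a replicate left out it is the ratio of the other replicate already given, 5.90 or 5.79, and so no separate check. It has no value with the gene body alone, since the ph-d summit is outside its body. The count of peaks with a full p53 site, 3 of 18, was 1 within 50 bp, 6 within 200 bp and 0 with at most 2 mismatches, beside 3.89%, 13.5% and 1.35% of all IDR peaks. It was 4 of 16 without replicate 2 and 2 of 15 without replicate 3, beside 7.82% and 7.86% of the 2290 regions used in each case. The cause of these shifts was not tested. Of 72 counts of summits per gene under the alternatives, 57 stayed within 1.5 times of the value given. These include all counts of Sce and asf1, which had no summit under any alternative. Of 26 values of the main results, 16 stayed close and 10 moved. Counts were judged by the same limit, and the ratio by the spread between replicates. That spread came from the replicate ratios themselves, 5.90 and 5.79, and both count as moved though they differ little. The ratios in the pooled list and within 1 kb of a start site, 5.65 each, rest on the same peaks and count as close. These values of the ratio are thus no separate checks. Too little is known of the depth to say what it limits, and 2 replicates of 1 group give no test. No paired analysis was possible because there is 1 group and no test.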
